A study of Mus musculus with 7 samples.

Results

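BOK and its relatives of the BCL2 family decide whether the outer membrane of mitochondria stays closed or is opened to start apoptosis. The genes described here are 10 of the 55855 gene identifiers in the deposited table, found by their symbols in GENCODE mouse release M21, which holds 55480 of the identifiers. They were chosen by their role as pore-forming, protective or BH3-only genes, and Bok was set at their head because its level had been seen to differ between the groups. All values below that compare the groups are therefore a description of the members and not a test of them. RNA was measured by paired-end sequencing in hematopoietic stem cells (HSCs) of mouse bone marrow, in 3 libraries of Fth1fl/fl cells (control) and 4 of Fth1△/△ cells (Fth1-deleted). All mice were 2 months old, and per the series text Fth1, the heavy chain of the iron store ferritin, was deleted conditionally in the blood system. Neither the Cre driver, nor whether the controls carry it, nor the sort of the cells is given in the labels. They also do not tie each library to a mouse of its own, so error measures here cover the spread between libraries, which may be technical.

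Members of the family fall into 3 classes by what their proteins do. BAX, BAK1 and BOK can form pores in the outer mitochondrial membrane and release cytochrome c, BCL2, BCL-XL (the product of Bcl2l1) and MCL1 hold them back, and BH3-only proteins sense damage or missing growth signals and tip the balance toward death. BAX and BAK1 are restrained by the protective proteins, whereas BOK largely escapes them and is known to be kept low by degradation at the endoplasmic reticulum. In blood stem cells MCL1 is the protective protein best known to be needed for survival, and the p53 targets Bbc3 (PUMA) and Pmaip1 (NOXA) are known for death after DNA damage.

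Fth1 was lower in all Fth1-deleted libraries. Fth1 (ENSMUSG00000024661) was at 552, 659 and 638 FPKM (reads scaled to gene length and library size) in control and at 202, 333, 358 and 114 in Fth1-deleted libraries. The groups did not overlap, and 40.8% of the control mean was left. On the log2(FPKM + 1) scale the difference, taken as Fth1-deleted less control throughout, was -1.42 (SE 0.33, limma adjusted p = 0.193, exact permutation p = 0.0571, two-sided), so neither test passed 0.05. Counted reads, recovered from the steps of the FPKM values, ranged from 12058392 to 15453168 per library. Ribosomal RNA, nuclear and mitochondrial together, took 0.414%, 1.09% and 0.266% of reads in control. It took 1.44% to 1.57% in all 4 Fth1-deleted libraries (two-sided exact permutation p = 0.0286, the smallest that 35 splits can give). The nuclear part alone was 0.025%, 0.984% and 0.014% in control and 1.22% to 1.34% in Fth1-deleted libraries, so control 2 lay nearest to these. Control 2 was also the only control library with Y-linked reads, which Fth1-deleted 1, 2 and 3 had and Fth1-deleted 4 lacked. Of 10 stem cell markers, 9 were above 0 in every library and Hoxb5 was at 0 in Fth1-deleted 2, with a summed level of 861 to 1420 FPKM in control and a lower 571 to 767 in Fth1-deleted, without overlap. In bulk RNA, fewer cells of a type and less RNA per cell cannot be told apart.

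Bok RNA was counted in every Fth1-deleted library and in none of the control libraries. Bok (ENSMUSG00000026278) lies on chromosome 1 from 93685660 to 93695764 on the plus strand of GRCm38, with 5 annotated transcripts of 3 to 5 exons. It was at 0 FPKM in all 3 control libraries and at 9.91, 8.56, 13.7 and 8.03 FPKM in the Fth1-deleted libraries. These values were worth 134, 102, 153 and 104 reads, against 0 reads in each control library. A count of 0 allows up to 3 reads per library, which for Bok is 0.253 FPKM on average over the control libraries. Against that floor the Fth1-deleted mean of 10.04 ± 2.54 FPKM (SD, n = 4) was at least 39.7-fold higher. This floor allows for counting error alone, as PCR copies are not independent molecules. The fitted log2 difference was 3.44 (SE 0.56); it depends on the pseudocount, which sets the level given to a gene at 0. No other gene of the annotation overlaps Bok or lies within 2 kb of it in the table, and no annotated transcript of another gene shared 200 bases with it at 95% identity or more.

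A pattern of this kind was rare among the genes tested. Of 13948 genes with a mean of at least 1 FPKM, 31 (0.222%) were at 0 in every control library and above 0 in every Fth1-deleted library, and 18 (0.129%) showed the opposite. Bok was 1 of 5 genes (0.0358%) at 0 in every control library with at least 100 reads in every Fth1-deleted library, and no gene (0.0%) showed the reverse at that depth. The lowest Bok count, 102 reads, lay just above that cut, and Bok had been chosen because its level differed. These shares therefore describe the pattern and are not a test of Bok. Zeros as such were common, since 3327 of the tested genes (23.9%) were at 0 in at least 1 of the 7 libraries. Summed markers of macrophages and of mast cells and basophils were also higher in Fth1-deleted libraries, without overlap. The 5 macrophage markers summed to 19.4 to 35.2 FPKM in control and 50.05 to 108.5 in Fth1-deleted libraries, with Adgre1 at 0 in every control library. The 4 mast cell and basophil markers summed to 0 to 12.9 and 16.04 to 44.4 FPKM, with Mcpt8 at 0 everywhere. Sums overlapped for the 8 neutrophil and monocyte precursor markers (283 to 561.8 and 275 to 697) and the 8 B cell precursor markers (12.1 to 26.2 and 24.2 to 87.8). Elane and Ctsg, of the neutrophil list, were at 0 in all control libraries and in Fth1-deleted 1 and 2, and were at 121 and 28.3 FPKM in Fth1-deleted 3 and at 59.9 and 25.7 in Fth1-deleted 4. Of the B cell list, Vpreb1, Vpreb3, Igll1 and Ebf1 were at 0 in control, and Vpreb1 was at 4.06, 9.71, 29.5 and 31.8 FPKM in the Fth1-deleted libraries. Sums also overlapped for markers of erythroid cells (229 to 728 and 183 to 634), megakaryocytes (525 to 779.97 and 779.77 to 926), T and NK cells (4.86 to 9.61 and 0 to 17.0) and endothelial and stromal cells (0 to 6.58 and 1.53 to 6.25 FPKM). The part of these cells in the Bok level was not tested. With the ribosomal RNA share as a covariate the Bok difference was 3.45, against 3.44 without it. Bok was at 0 in every control library whatever its share, so the covariate could change this value little. The part of the ribosomal RNA share in the Bok level was not tested.

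The promoters of Bok and of 3 members described below are shown: Bok, the 2 protective genes without overlap between the groups, and Bax, the pore-forming relative of Bok with the higher level. Each is the 250 bases before a RefSeq transcription start in GRCm38.p6, read 5′ to 3′ on the strand of the gene. For Bok that start is base 93685575, upstream of the gene start at 93685660 in GENCODE M21, and the Bcl2l1 start shown, base 152828489, lies within the GENCODE gene. Bok is chr1:93685325-93685574 on the plus strand, Bax is chr7:45466899-45467148 on the minus strand, Bcl2 is chr1:106714291-106714540 on the minus strand, and Bcl2l1 is chr2:152828490-152828739 on the minus strand. Capitals mark matches, on either strand, to the GC box GGGCGG, the core of the antioxidant response element TGACNNNGC, the E-box CACGTG and the half-site of p53.
Bok: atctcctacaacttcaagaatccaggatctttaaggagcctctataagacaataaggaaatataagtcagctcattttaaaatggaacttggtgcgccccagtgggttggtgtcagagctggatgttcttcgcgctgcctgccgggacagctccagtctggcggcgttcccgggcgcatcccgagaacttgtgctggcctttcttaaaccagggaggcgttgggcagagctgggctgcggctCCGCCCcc
Bax: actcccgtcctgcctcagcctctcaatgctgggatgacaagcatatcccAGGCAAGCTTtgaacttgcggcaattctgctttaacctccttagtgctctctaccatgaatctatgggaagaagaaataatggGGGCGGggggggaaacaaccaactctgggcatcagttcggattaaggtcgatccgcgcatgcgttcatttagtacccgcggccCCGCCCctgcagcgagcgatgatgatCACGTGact
Bcl2: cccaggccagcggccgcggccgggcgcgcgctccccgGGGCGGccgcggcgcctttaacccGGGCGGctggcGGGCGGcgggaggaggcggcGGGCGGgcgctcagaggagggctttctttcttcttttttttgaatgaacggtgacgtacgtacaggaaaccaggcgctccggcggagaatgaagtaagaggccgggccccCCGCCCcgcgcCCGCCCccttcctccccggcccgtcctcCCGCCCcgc
Bcl2l1: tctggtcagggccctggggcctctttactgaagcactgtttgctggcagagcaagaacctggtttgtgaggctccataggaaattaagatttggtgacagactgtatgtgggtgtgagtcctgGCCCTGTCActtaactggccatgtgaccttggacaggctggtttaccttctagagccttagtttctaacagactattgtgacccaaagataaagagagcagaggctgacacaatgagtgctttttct

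The Bok window held 1 GC box and none of the other 3 motifs, and 12 CpG pairs, where the median of all windows was 6. The Bcl2 window was denser, with 7 GC boxes and 36 CpG pairs. The Bax window held 2 GC boxes, 1 E-box and 1 p53 half-site, the sequence through which p53 is known to bind DNA. Bcl2l1 has 3 RefSeq starts, and the one shown is the only window among the members with the antioxidant element core, to which NRF2 and BACH1 are known to bind. It held no CpG pair. The Bcl2l1 windows before bases 152830717 and 152831728, not shown, held 11 and 12 CpG pairs and none of these motifs. Base 152831728 is also the start of the gene in GENCODE M21. Over the 32851 RefSeq windows of this length, 32.7% held the GC box, 10.2% the antioxidant element core, 6.02% the E-box and 7.13% the p53 half-site, so that a match is not unusual. RefSeq windows were found for 9 of the 10 members, 14 in all. A match describes these letters only, and none shows that a factor binds there.

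**Figure D1:**
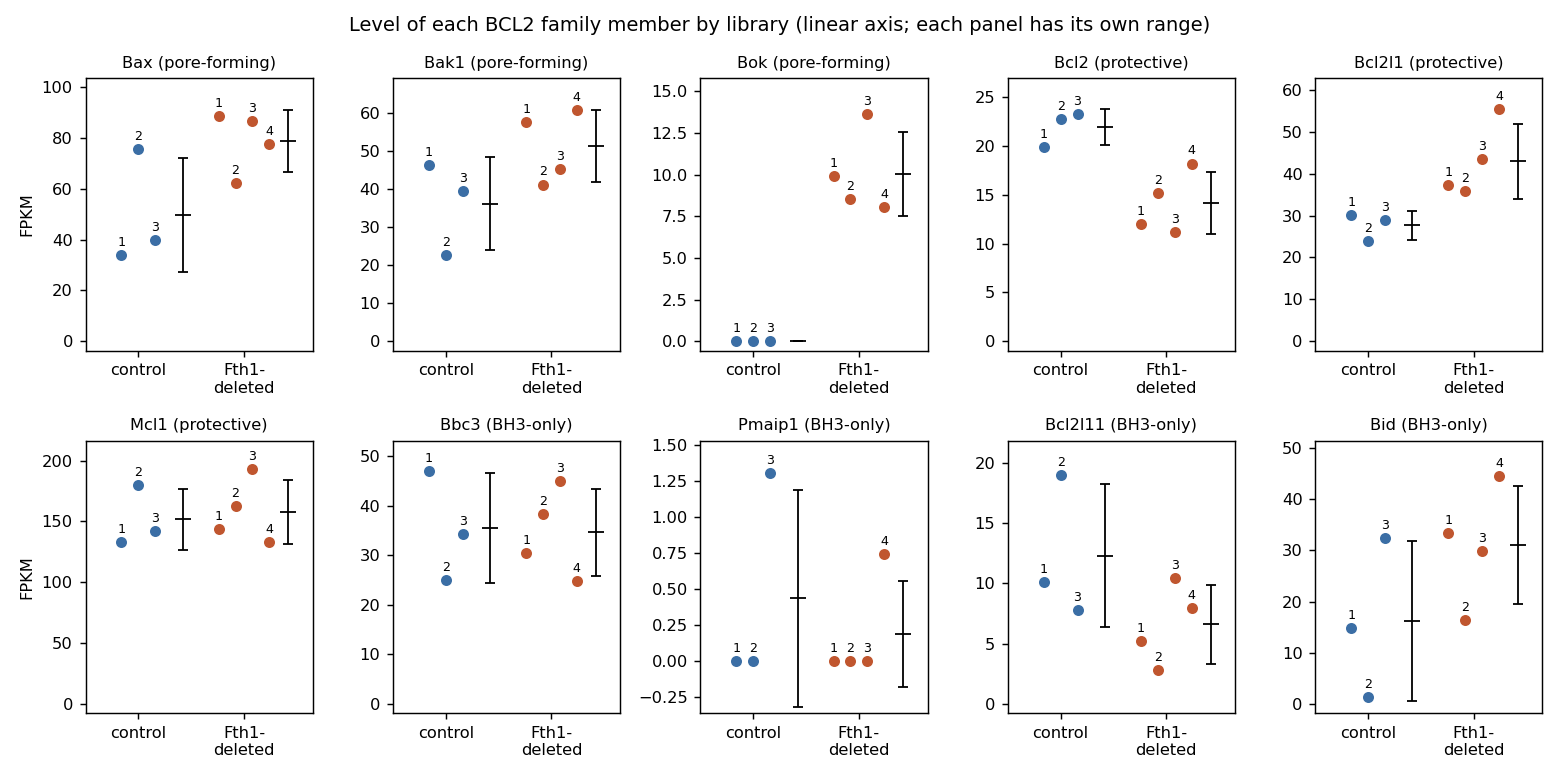
FPKM (linear axis from each panel's own range) of the 10 members in each library, numbered by replicate, with control in blue and Fth1-deleted in orange; black bars are mean ± SD (n = 3 and 4 libraries). Bok is at 0 in all control libraries and at 8.03 to 13.7 in Fth1-deleted, Bcl2l1 and Bcl2 do not overlap between the groups in opposite directions, and in the Bax and Bid panels control 2 stands away from the other control libraries.

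For the other pore-forming genes, the means of Bax and Bak1 were higher in Fth1-deleted libraries, but the groups overlapped for both. Bax (ENSMUSG00000003873, chromosome 7, 45461697 to 45466898, minus strand), whose protein moves from the cytosol into the mitochondrial membrane, was at 33.7, 75.5 and 40.0 FPKM in control and at 88.7, 62.1, 86.5 and 77.7 in Fth1-deleted libraries. Control 2 lay within the Fth1-deleted range, and the other control libraries lay below it. The means were 49.7 ± 22.5 and 78.8 ± 12.1 FPKM, with a log2 difference of 0.73 (SE 0.28). Without control 2 the difference was 1.07 and the groups no longer overlapped. With the ribosomal RNA share as a covariate it was -0.07, and control 2 was the control library with the highest such share. The annotation gives 6 transcripts of Bax, which the gene value does not separate. Bax lies 1812 bases from Ftl1, the ferritin light chain gene on the same strand. Ftl1 was at 177 ± 23.2 and 331 ± 75.2 FPKM (0.88 on the log2 scale, SE 0.21, limma adjusted p = 0.219).

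Bak1 (ENSMUSG00000057789, chromosome 17, 27019810 to 27029009, minus strand) encodes the pore former that sits in the mitochondrial membrane at all times. It was at 46.3, 22.6 and 39.6 FPKM in control and at 57.6, 41.25, 45.4 and 61.0 in Fth1-deleted libraries. Here control 2 was the lowest of the 7, whereas for Bax it was the highest control library. Only control 1 reached the Fth1-deleted range, above 2 of its 4 libraries. The log2 difference was 0.53 (SE 0.29), 0.24 without control 2 and 1.22 with the ribosomal RNA covariate. Ggnbp1, which overlaps Bak1 on the opposite strand, was at 0.0147 FPKM or less. The ratio of Bax to Bak1 was 0.728, 3.33 and 1.01 in control and 1.27 to 1.91 in Fth1-deleted libraries, so the spread lay mostly among the control libraries.

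Summed over the 3 genes, pore-forming RNA was at 80.1, 98.1 and 79.6 FPKM in control and at 156, 112, 146 and 147 in Fth1-deleted libraries, without overlap. Bok made up 5.47% to 9.38% of that sum in Fth1-deleted libraries and 0% in control, and Bax and Bak1 the rest.

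Of the protective genes, Bcl2l1 was higher and Bcl2 lower in every Fth1-deleted library than in every control library, while the groups overlapped for Mcl1. Bcl2l1 (ENSMUSG00000007659, chromosome 2, 152780668 to 152831728, minus strand) encodes BCL-XL, known as a survival factor of platelets and red cell precursors. It was at 30.2, 23.8 and 28.9 FPKM in control and at 37.2, 35.8, 43.5 and 55.5 in Fth1-deleted libraries. The lowest Fth1-deleted value stood above the highest control value, with means of 27.6 ± 3.37 and 43.01 ± 8.97 FPKM and a log2 difference of 0.61 (SE 0.26). It stayed between 0.48 and 0.68 with any 1 library left out. Gene values do not separate the long protective form from the short form of Bcl2l1, for which 9 transcripts are annotated.

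Bcl2 (ENSMUSG00000057329, chromosome 1, 106538178 to 106714274, minus strand), the founding protective gene of the family, went the other way. It was at 19.9, 22.8 and 23.3 FPKM in control and at 12.05, 15.2, 11.2 and 18.2 in Fth1-deleted libraries. Fth1-deleted 4 came closest to control, and the other 3 were further below. The means were 22.0 ± 1.84 and 14.2 ± 3.21 FPKM, and the log2 difference was -0.62 (SE 0.33; -0.74 to -0.52 with any 1 library left out). The ratio of Bcl2l1 to Bcl2 was 1.52, 1.05 and 1.24 in the control libraries, against 3.09, 2.36, 3.89 and 3.05 after deletion. That this ratio did not overlap follows from the opposite directions of both genes and is no further result.

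Mcl1 (ENSMUSG00000038612, chromosome 3, 95658788 to 95663176, plus strand), whose protein turns over quickly, was the most abundant member in both groups. It was at 133, 180 and 142 FPKM in control and at 143, 162, 193 and 133 in Fth1-deleted libraries. The ranges were nearly the same, and the log2 difference of 0.06 (SE 0.20) turned to as low as -0.02 under another scaling between libraries. Mcl1 made up 72.6% to 79.4% of protective RNA in control and 64.4% to 77.9% in Fth1-deleted libraries. Protective RNA as a sum therefore overlapped, at 201 ± 22.6 and 215 ± 23.4 FPKM. Its ratio to the pore-forming sum was 2.28, 2.31 and 2.44 in the control libraries, against 1.23, 1.91, 1.70 and 1.41 after deletion. No Fth1-deleted ratio reached the lowest control ratio, with the 3 control libraries close together although their Bax and Bak1 levels differed. This ratio is built from the pore-forming sum, which includes Bok and did not overlap, so it is no result apart from that sum.

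**Figure D2:**
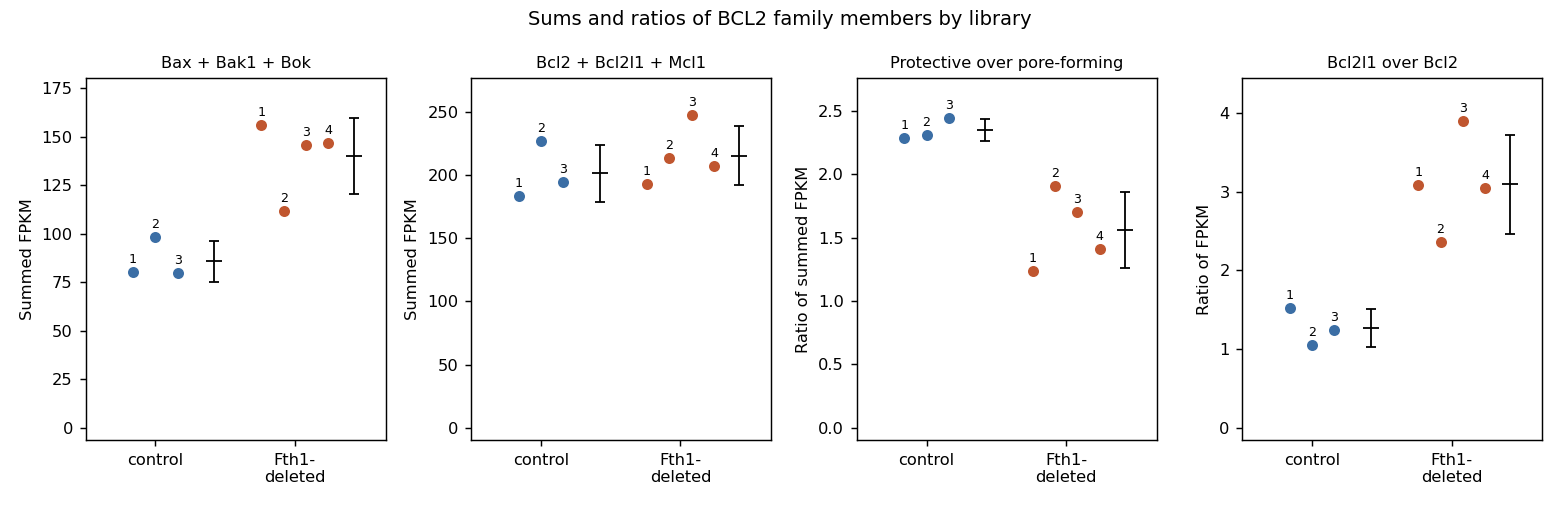
Summed FPKM of the 3 pore-forming and the 3 protective genes, the ratio of protective to pore-forming sums, and the ratio of Bcl2l1 to Bcl2 (no unit), per library numbered by replicate; black bars are mean ± SD (n = 3 control, blue, and 4 Fth1-deleted, orange). Pore-forming sums and both ratios do not overlap between the groups, and protective sums do. For Bcl2l1 over Bcl2 this follows from the opposite directions of both genes, and the other ratio is built from the pore-forming sum, which includes Bok.

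The groups overlapped for all 4 BH3-only genes. Bbc3 (ENSMUSG00000002083, chromosome 7, 16308393 to 16318205, plus strand), the gene of PUMA, was at 47.1, 24.998 and 34.2 FPKM in control and at 30.6, 38.3, 45.0 and 24.7 in Fth1-deleted libraries. The groups covered the same range, with a log2 difference of -0.02 (SE 0.31), or up to 0.02 under another scaling. Bcl2l11 (ENSMUSG00000027381, chromosome 2, 128126038 to 128162547, plus strand) encodes BIM, which responds to the loss of growth factors. It was at 10.1, 19.0 and 7.76 FPKM in control and at 5.17, 2.83, 10.4 and 7.91 in Fth1-deleted libraries. Control 2 was highest and the remaining libraries overlapped. The log2 difference was -0.83 (SE 0.52), -0.50 without control 2 and -1.81 with the ribosomal RNA covariate.

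Bid (ENSMUSG00000004446, chromosome 6, 120891930 to 120916853, minus strand) links death receptors to mitochondria after cleavage by caspase-8. It was at 14.8, 1.35 and 32.4 FPKM in control and at 33.4, 16.4, 29.8 and 44.5 in Fth1-deleted libraries. Control 2 held 25 Bid reads, while the other libraries held 253 to 811, and the groups overlapped. The log2 difference was 1.49 (SE 0.72) and was 0.40 without control 2 and 4.48 with the ribosomal RNA covariate. Bid and Bcl2l13 run toward each other and overlap over 913 bases, and as no source used here says whether counting used strand, reads in that overlap cannot be assigned. Pmaip1 (ENSMUSG00000024521), the gene of NOXA, was the only member below the filter. It was at 1.31 FPKM in control 3 and 0.743 in Fth1-deleted 4, worth 33 and 23 reads, and at 0 in the other 5 libraries.

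Counted by the fit over all genes, 9 of the 10 members passed the filter at a mean of 1 FPKM and 0 of these 9 passed an adjusted p of 0.05 (limma, Benjamini-Hochberg), where 0.0574% of all tested genes did (0.0287% higher and 0.0287% lower). At an unadjusted p under 0.05 there were 3 (Bok, Bax and Bcl2l1), against 9.83% of all tested genes. With limma-voom on the recovered reads 0 members were called, against 0.0365% of the genes tested there. Groups did not overlap for 2 members that were higher (Bok and Bcl2l1; 4.1% of all tested genes) and 1 that was lower (Bcl2; 5.55% of all tested genes), in either direction 3 against 9.65%. The median log2 difference was 0.53 over the 9 members and -0.02 over all tested genes. Bok had passed that filter only through the group in which it was present.

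FPKM is per length, but that length is the mean over annotated transcripts, which for Bax run from 222 to 1100 bases. Levels of different genes, and the shares, sums and ratios of members above, are therefore compared only roughly. Ranked by mean FPKM, the order in control was Mcl1, Bax, Bak1, Bbc3, Bcl2l1, Bcl2, Bid, Bcl2l11, Pmaip1 and Bok. Only 3 neighbours in it had ranges apart, Mcl1 above Bax, Bcl2l1 above Bcl2, and Bcl2l11 above Pmaip1. In Fth1-deleted libraries the order was Mcl1, Bax, Bak1, Bcl2l1, Bbc3, Bid, Bcl2, Bok, Bcl2l11 and Pmaip1. There the ranges were apart for Mcl1 above Bax, Bax above Bak1, and Bcl2l11 above Pmaip1. Bok thus stood last in control, and in Fth1-deleted libraries its range overlapped those of Bcl2 and Bcl2l11.

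The remaining genes of the family did not pass the test in either direction. Of 16 such genes, 9 reached a mean of 1 FPKM, and 0 of them passed a limma adjusted p of 0.05, higher or lower (0 also at an unadjusted p under 0.05 and by limma-voom). Their median log2 difference was 0.04. Bnip3l, a receptor that marks mitochondria for removal, was the most abundant at 130 ± 8.33 and 122 ± 15.98 FPKM, though 1131 bases of it are 99.4% identical to the pseudogene Bnip3l-ps. Its relative Bnip3 was at 10.6 ± 10.9 and 9.53 ± 3.06 FPKM, with 0 in control 1. Becn1, the BH3-bearing autophagy gene, was at 41.9 ± 18.3 and 56.7 ± 3.88 FPKM (limma adjusted p = 0.608) and shares 1299 bases with Cntd1, at 2.88 FPKM or less. The BH3-only gene Bad was at 26.9 ± 12.1 and 29.1 ± 14.3, and the protective gene Bcl2l2 at 18.2 ± 8.21 and 14.3 ± 7.17 FPKM. Bcl2l13, also a mitophagy receptor, was at 32.6 ± 9.58 and 33.7 ± 9.79 and Bcl2l12 at 22.1 ± 11.7 and 15.6 ± 5.54 FPKM. The values of Bad, Bcl2l12, Bcl2l14 and Bnip3 are uncertain to the extent that reads were shared, since Bad has 519 bases in common with Gpr137, Bcl2l12 470 with Gm15545, Bcl2l14 494 with 4933406J09Rik (2.98 FPKM or less), and Bnip3 5 near-identical copies. Bmf, a BH3-only gene, was at 0, 13.5 and 6.72 FPKM in control and at 0 in all Fth1-deleted libraries but the fourth, at 5.08. Bcl2l14 was at 0, 1.70 and 0 FPKM in control and at 2.25, 0, 12.1 and 4.04 in Fth1-deleted libraries, so both of these genes overlapped between the groups. Bcl2l10, Bcl2a1b, Bik, Hrk and Bcl2l15 were listed at 0 in all 7 libraries, and Bcl2a1a and Bcl2a1d, near-identical copies whose reads cannot be told apart with certainty, only above 0 in Fth1-deleted 4.

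Among genes whose proteins bind or degrade BOK, 0 of 6 passed a limma adjusted p of 0.05, higher or lower. There was 1 (Itpr1) at an unadjusted p under 0.05, against 9.83% of all tested genes. By limma-voom there were 0, and the median log2 difference was 0.01. Itpr1 encodes an inositol trisphosphate receptor, the calcium channel of the endoplasmic reticulum to which BOK is known to bind. It was at 32.3, 58.5 and 54.3 FPKM in control and at 22.8, 21.6, 28.9 and 12.5 in Fth1-deleted libraries. All 4 Fth1-deleted values were below all control values, as in 5.55% of all tested genes. The log2 shift was -1.15 (SE 0.34, limma adjusted p = 0.309). Itpr2 was at 22.9, 14.3 and 8.59 and at 3.34, 5.42, 17.2 and 3.35 FPKM, with overlap through Fth1-deleted 3, and Itpr3 was at 13.7 ± 5.14 and 12.1 ± 2.27 FPKM. Vcp, the ATPase that draws proteins marked for degradation out of the membrane, was at 281 ± 73.5 and 345 ± 47.6 FPKM (limma adjusted p = 0.641). Umps, an enzyme of uridine synthesis reported as a partner of BOK, was at 31.5 ± 6.86 and 34.7 ± 5.76 FPKM.

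Downstream of the mitochondria, 0 of 14 apoptosome and caspase genes passed a limma adjusted p of 0.05, higher or lower. At an unadjusted p under 0.05 there were 3 (Casp6 and Cycs among them), against 9.83% of all tested genes. By limma-voom there were 0, and the median log2 difference was -0.02. Casp6, an executioner caspase, was at 22.1, 20.2 and 30.2 FPKM in control and at 16.02, 8.30, 5.04 and 7.01 in Fth1-deleted libraries. It was lower in all of them, with a log2 difference of -1.41 (SE 0.43, limma adjusted p = 0.326). Cycs, the gene of cytochrome c itself, was at 42.5 ± 9.31 and 61.1 ± 7.10 FPKM without overlap (limma adjusted p = 0.490). Of all tested genes, 4.1% were higher and 5.55% lower without overlap.

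Of the inhibitors of apoptosis, 0 of 6 passed (median log2 difference -0.05), with Birc5, which also serves cell division, at 21.3 ± 13.0 and 35.1 ± 7.44 FPKM and Xiap, the direct caspase inhibitor, at 38.4 ± 13.1 and 28.4 ± 7.26. Of death receptor and necroptosis genes 0 of 7 tested passed (median 0.17). Mlkl, the pore former of necroptosis, was at 22.1 ± 2.81 and 35.7 ± 13.2 FPKM and Ripk1 at 27.5 ± 7.33 and 21.4 ± 6.73. Of 10 genes of the outer membrane and of mitochondrial fusion and fission 0 passed (median 0.07). Opa1, which shapes the inner membrane folds that hold cytochrome c, was at 36.7 ± 6.37 and 26.8 ± 1.80 FPKM without overlap (limma adjusted p = 0.625), and Mff, a recruiter of the fission machinery, at 63.5 ± 22.9 and 48.5 ± 9.21. Of 4 genes that control MCL1 turnover 0 passed, and all 4 had negative differences (median -0.27), as did 7155 of all 13948 tested genes. Btrc, part of a ubiquitin ligase, was at 22.5 ± 5.30 and 14.0 ± 1.07 FPKM without overlap (limma adjusted p = 0.576) and Usp9x, which removes ubiquitin from MCL1, at 61.6 ± 13.5 and 51.4 ± 18.6. Of 5 tested transcription factors of BH3-only genes 0 passed (median 0.10). E2f1 was at 35.2 ± 2.48 and 44.3 ± 6.95 FPKM and Foxo3 at 81.3 ± 7.26 and 67.0 ± 28.6. In these 5 lists 0 genes had an unadjusted p under 0.05 and 0 were called by limma-voom, against 9.83% and 0.0365% of all tested genes. Groups without overlap, as for Opa1 and Btrc, were found in 9.65% of all tested genes. Over all 54 genes of the lists outside the family, 52 were tested, and 26 differences were positive and 26 negative.

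**Figure D3:**
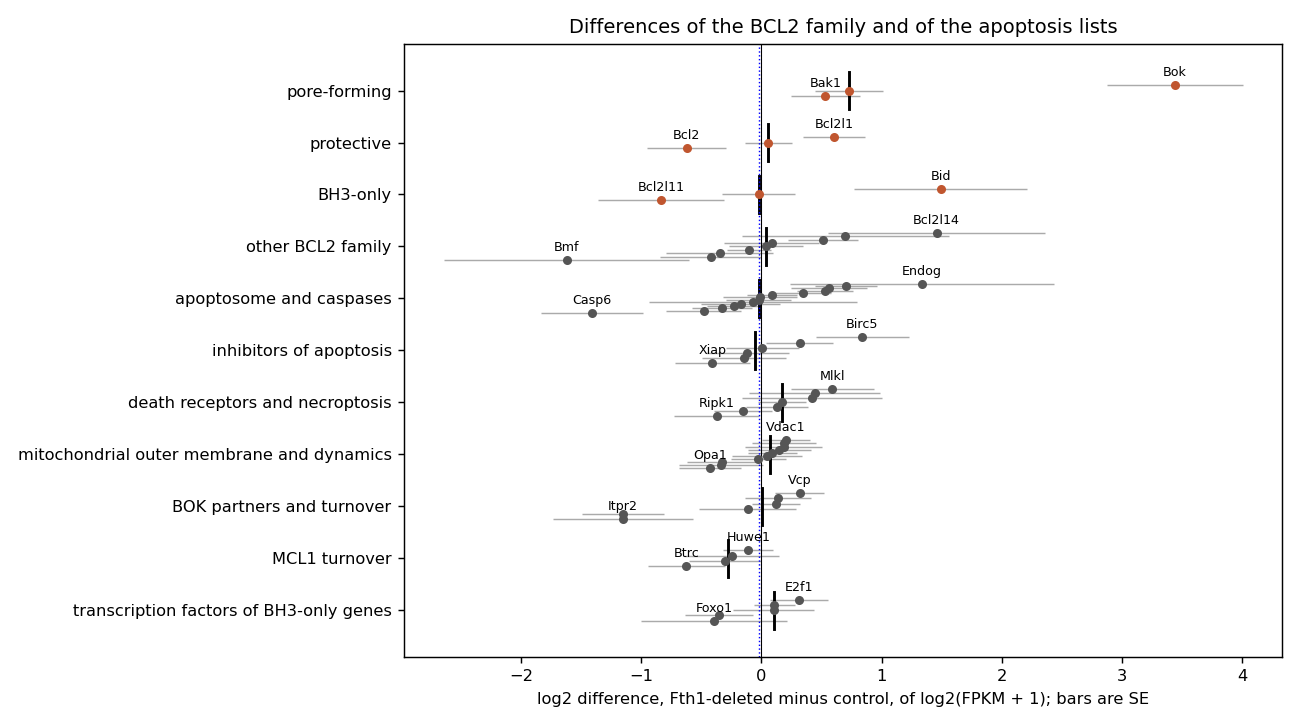
Log2 difference, Fth1-deleted minus control, of log2(FPKM + 1) for each tested gene (points, with SE) by list, with the 3 classes of members in orange, other lists in grey, list medians as black bars and the median of all tested genes as a dotted line at -0.02. Bok lies at 3.44, beyond all other genes shown, and the medians of the other lists lie between -0.27 and 0.17.

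The genes closest to Bok in profile were Best1, Mypopos, Bbs5, Alox5 and Tnfsf9. Likeness was the root mean square difference between log2(FPKM + 1) profiles over the 7 libraries, each centred on its own mean, among 11490 genes with a symbol. It was 0.25 for Best1, 0.26 for Mypopos, 0.27 for Bbs5, 0.41 for Alox5 and 0.57 for Tnfsf9, in log2 units. All 5 were at 0 in all control libraries, as the choice by likeness brings about. Best1, a chloride channel gene that lies end to end with Fth1 on the opposite strand, was at 14.1, 10.6, 14.5 and 13.4 FPKM in Fth1-deleted libraries. It was the only one of the 5 that passed the test (limma adjusted p = 0.026), and that call was lost under 10 of 20 alternative settings. Alox5, the lipoxygenase that starts leukotriene synthesis, was at 8.21, 6.44, 19.3 and 16.3, with more spread than Bok. Bbs5, part of the complex that carries cargo to cilia, was at 6.01, 9.53, 10.7 and 5.63 FPKM. Mypopos, an RNA named as antisense to Mypop, was at 6.89, 8.90, 8.56 and 5.84, and its reads cannot be told from those of its partner without strand. Tnfsf9, the ligand of the T cell receptor 4-1BB, was at 2.56, 4.55, 6.84 and 4.24 FPKM. Fth1-deleted 3 was the highest library for Bok and also for Best1, Bbs5, Alox5 and Tnfsf9, which the choice by likeness favours.

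**Figure D4:**
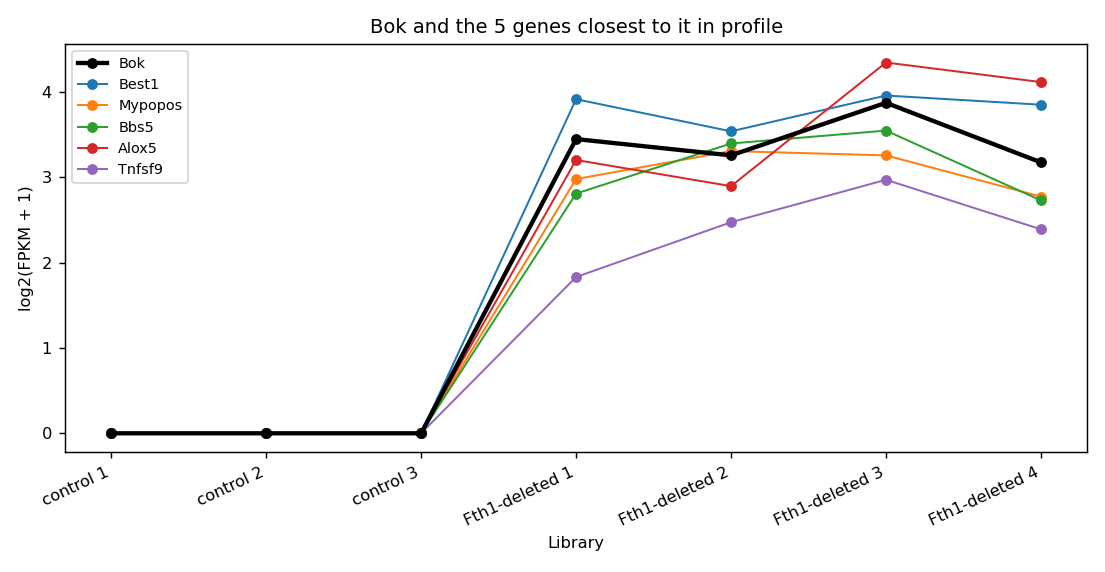
Log2(FPKM + 1) of Bok (black) and of the 5 genes closest to it in profile, by library; lines only join the points of a gene. All 6 genes are at 0 in the 3 control libraries and above 0 in the 4 Fth1-deleted libraries, where Tnfsf9 is lowest.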

How the data were processed

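Gene expression was measured in 7 libraries, 3 control and 4 Fth1-deleted, grouped by their titles. The deposited values are FPKM; per the series text and the submitters' processing notes, HISAT2 2.0.4 was the aligner, GRCm38 the genome and HTSeq 0.9.1 the counter, and the authors derived each value from the read count and the gene length. The annotation release, filters and strand setting are not given in the sources used here. FPKM multiplied by the mean transcript length of GENCODE M21, rounded to whole bases, fell on whole reads for 98.9% to 99.4% of values below 50 reads (within 0.05 reads), which gave depth.

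Values were fitted as log2(FPKM + 1) for the 13948 genes with a mean of at least 1 FPKM (limma 3.58.1 in R 4.3.3, limma-trend, no covariate, two-sided, Benjamini-Hochberg). The fit was tested on simulated data. Named genes are the members, the other family genes with a mean of at least 1 FPKM, the partners of BOK, the 2 genes of smallest p in each other list, and the 5 closest to Bok; Cycs, Ftl1 and genes below that mean were named after their values were seen. Not every gene meeting these criteria is reported here. The members and lists were chosen with earlier results of these data known. Alternatives were other pseudocounts, filters, scalings, variance models, covariates, a replicate block, each library left out, and limma-voom on recovered reads.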

Additional observations from a re-analysis of the deposited data

Results flagged for a closer look

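In 3 genes, 1 Fth1-deleted library lay far from the other 3 (its gap to the nearest over the group's range exceeded Dixon's value for 4 samples, which chance passes in about 1 of 20 groups; 43 genes were screened). Pmaip1 was at 0.743 FPKM in Fth1-deleted 4 and at 0 in the others. Bmf, like Pmaip1 a BH3-only gene, was at 5.08 FPKM in the same library and at 0 in the others. These values were worth 23 reads for Pmaip1 and 104 for Bmf. With the others at 0, any value above 0 would have been flagged, so the rate of 1 of 20 does not apply to these genes. Itpr2, of the inositol trisphosphate receptors, was at 17.2 FPKM in Fth1-deleted 3 and at 3.34 to 5.42 in the others.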

How the results depend on the processing

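The count of family members called was 0 in the fit and in 19 of 20 alternatives, and 1 (Bok) with limma without a trend; the count over the other lists was 0 in all 20. The Bok difference was positive in all 20, at 3.29 to 3.53 with any 1 library left out, 1.57 with a pseudocount of 5 and 7.86 by limma-voom. The signs of Bcl2, Bcl2l1, Bak1, Bcl2l11 and Bid held in all 20, though the ribosomal RNA covariate moved Bak1 to 1.22, Bcl2l11 to -1.81 and Bid to 4.48; Bax turned with the ribosomal RNA covariate only, and Mcl1 and Bbc3, near 0, turned in 6 and 7. Over all genes, 4 were called higher and 4 lower. These counts were 0 and 0 with no filter and with the replicate block, 10 and 7 without a trend, 2 and 0 with the ribosomal RNA covariate, 7 and 10 with the Y-linked covariate, 0 and 5 by limma-voom, and 0 to 13 and 0 to 6 with 1 library left out. Fth1 was at -1.74 with the Y-linked covariate (limma adjusted p = 0.0491, against 0.0491 to 0.684 over its alternatives). The cause was not tested. Replicate numbers were not taken to pair the libraries: no label says so, and deviations of same-numbered libraries correlated at 0.009, 0.061 and -0.037. By contrast, 4 of 6 libraries correlated best with their own number, which is only a hint from the data.

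Other differences changed sign. With the ribosomal RNA covariate Bad went from 0.087 to -0.019, Bnip3 from 0.70 to -0.80, Ripk1 from -0.37 to 0.23 and Usp9x from -0.30 to 0.22. Bcl2l2 went from -0.35 to 0.038 with the Y-linked covariate, and Bcl2l13 from 0.039 to -0.036 rescaled to TPM, at -0.028 under arrayWeights and at -0.017 under the replicate block. With 1 library left out, Bad reached -0.20 to 0.42, Bcl2l13 -0.12 to 0.26, Bnip3 -0.63 to 1.63, Itpr3 -0.44 to 0.094 and Umps -0.041 to 0.27.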

Other observations

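The 5 genes at 0 in every control library with at least 100 reads in every Fth1-deleted library were Bok, Best1, Alox5, Espnl and Gm45902, named after their values were seen. Espnl was at 1.647, 1.87, 2.89 and 7.20 FPKM and Gm45902 at 6.24, 5.65, 8.60 and 4.66 FPKM in the Fth1-deleted libraries.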
